A study of Mus musculus with 6 samples.

Results

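Rrbp1, Actn2, Gfm2, Sphk2, Acnat1 and Dbp are 6 of the 23725 mouse genes whose reads were counted in 3T3-L1 fibroblasts with and without extracellular vesicles (EVs) of liver progenitor cells. The 6 genes were chosen from these same libraries, because their counts were higher after EV treatment, and Rrbp1, Gfm2, Actn2, Sphk2 and Acnat1 were, in that order, the genes with the lowest adjusted p among those with every EV library above every control library in normalized CPM, the counts scaled to the effective size of each library. The difference between EV and control libraries is therefore given for these genes as a description, with no test. Dbp was listed with them as a gene that was higher in every EV library, but its values in the 2 groups overlapped. The paper's own DESeq2 analysis lists Dbp, and none of the other genes chosen here, among its significantly upregulated transcripts.

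The 3T3-L1 line is a mouse embryonic fibroblast line that can be turned into adipocytes, and it was the only recipient of the EVs. EV libraries 1, 2 and 4 came from plates that received, for 24 h, vesicles spun out of medium conditioned by MLP29, a clonal mouse liver progenitor line, at about 20 µg of vesicle protein. Control libraries 1, 2 and 3 came from plates that received, for the same time, what the same isolation yields from medium that had held no cells. All plates were kept in a HEPES-buffered complete DMEM that had been cleared of vesicles, and the cells of each plate were shared between RNA and protein work. Each library is 1 plate treated with its own preparation, so that p-values measure the spread between plates of 1 cell line. Library totals lay between 508599 and 665465 counts, with EV library 1 the smallest and control library 3 the largest.

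These genes act in different compartments. Rrbp1 encodes a ribosome-binding membrane protein of the rough endoplasmic reticulum (ER), the compartment in which secreted and membrane proteins are made. Actn2 encodes α-actinin-2, which crosslinks actin filaments at the Z-disc of muscle, while fibroblasts mainly use the non-muscle actinins of Actn1 and Actn4. Gfm2 encodes a mitochondrial elongation factor that takes part in recycling mitochondrial ribosomes after a round of protein synthesis. Sphk2 encodes a sphingosine kinase, which makes the signalling lipid sphingosine-1-phosphate and is found in the nucleus and at mitochondria. Acnat1 encodes a peroxisomal acyltransferase related to the bile acid conjugating enzyme of Baat, and Dbp encodes a transcription factor that binds D-box sites and oscillates with the circadian clock.

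Rrbp1 lies on chromosome 2 (143947395 to 144011263, minus strand), Actn2 on chromosome 13 (12269426 to 12340760, minus strand), Gfm2 also on chromosome 13 (97137937 to 97181195, plus strand) and Acnat1 on chromosome 4 (49447105 to 49473912, minus strand), in GRCm38 with the GENCODE vM21 gene models. Sphk2 (45709467 to 45718002, minus strand) and Dbp (45705088 to 45710203, plus strand) lie on chromosome 7 and converge, so that the ends of both genes overlap. The promoters of 4 genes are shown: that of Actn2 as the gene with the largest fold change, that of Rrbp1 as the gene with the most counts, and those of Sphk2 and Dbp as the overlapping pair. Each sequence runs 5′ to 3′ from 250 bases before an annotated start to 50 after it (RefSeq, GRCm38.p6). For Dbp that start lies downstream of the first base of the gene given above, so that most of its window lies inside the gene. Capitals mark 4 motifs found on either strand, the E-box CACGTG, the cyclic AMP response element (CRE) TGACGTCA, the D-box TTATGNAA and the CCAAT box; the 4 motifs did not overlap one another in these windows.
Actn2, chr13:12340683-12340982, minus strand: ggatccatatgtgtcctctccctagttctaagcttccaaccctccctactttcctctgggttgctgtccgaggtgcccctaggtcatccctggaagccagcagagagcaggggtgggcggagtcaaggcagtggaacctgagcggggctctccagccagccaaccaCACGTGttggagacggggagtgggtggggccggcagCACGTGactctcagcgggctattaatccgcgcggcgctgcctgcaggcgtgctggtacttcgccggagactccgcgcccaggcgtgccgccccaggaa
Rrbp1, chr2:144011214-144011513, minus strand: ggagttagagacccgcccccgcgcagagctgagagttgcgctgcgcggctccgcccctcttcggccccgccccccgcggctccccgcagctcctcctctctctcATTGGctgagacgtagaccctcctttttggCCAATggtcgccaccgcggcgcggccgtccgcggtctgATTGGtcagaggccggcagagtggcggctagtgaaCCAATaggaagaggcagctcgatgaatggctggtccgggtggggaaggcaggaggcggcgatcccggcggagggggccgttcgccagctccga
Sphk2, chr7:45717953-45718252, minus strand: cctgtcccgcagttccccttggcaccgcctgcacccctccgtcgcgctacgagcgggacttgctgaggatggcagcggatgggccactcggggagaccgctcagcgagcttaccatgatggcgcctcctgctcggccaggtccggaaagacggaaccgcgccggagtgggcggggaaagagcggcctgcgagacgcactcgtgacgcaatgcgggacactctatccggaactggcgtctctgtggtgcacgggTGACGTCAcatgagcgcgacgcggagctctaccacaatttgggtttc
Dbp, chr7:45704997-45705296, plus strand: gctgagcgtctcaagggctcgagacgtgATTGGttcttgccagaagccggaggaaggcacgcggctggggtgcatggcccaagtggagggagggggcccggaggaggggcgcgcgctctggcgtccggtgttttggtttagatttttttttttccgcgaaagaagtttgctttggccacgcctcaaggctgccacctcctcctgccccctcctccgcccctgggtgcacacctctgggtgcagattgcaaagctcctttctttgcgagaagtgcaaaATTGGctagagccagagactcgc

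The promoter of Actn2 held 2 E-boxes upstream of the start, a motif found at least once in 7.2% of the 32851 promoters of the same length that were searched. The Rrbp1 promoter held 4 CCAAT boxes, which 37.4% of them hold, and the Sphk2 window shown held 1 CRE just after the start, which 1.8% hold. RefSeq gives Sphk2 another start further downstream, whose window (chr7:45715158-45715457, minus strand) held 2 CCAAT boxes and no CRE. The Sphk2 window shown shares 168 bases with that of Rpl18, which starts on the opposite strand. The Dbp window shown held 2 CCAAT boxes and no match to the D-box, which 3.4% of those searched hold. In GC content the windows of Actn2, Rrbp1, Sphk2 and Dbp reached 64.7%, 69.3%, 66.0% and 60.3%, above the median of 52.7% over the promoters searched. The windows of Gfm2 (60% GC) and Acnat1 (50.7% GC) held none of the 4 motifs. The Acnat1 window (chr4:49451060-49451359, minus strand) lies inside the span of the gene given above. It belongs to a start far downstream of the first base of that span, and the sequence before the first base was not searched. A match is only a run of letters, and binding was not measured.

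All 6 genes passed the filter on low counts, which kept 5066 genes for testing. With edgeR's quasi-likelihood test and a threshold of 0.05 on the adjusted p, 21.9% of them passed in either direction, 7.58% (384 genes) as higher and 14.3% (723 genes) as lower in EV libraries. The number of higher genes fell to 127 without control library 1 and to 65 without control library 2, and the number of lower genes to 390 without control library 2. Normalized CPM put the lowest EV value above the highest control value for 5 of the 6 genes, all but Dbp, against 17.9% of the genes tested. Raw counts did so for 2 of the 6, Actn2 and Gfm2, against 1.54% of the genes tested. Since the genes were chosen by these values, the counts only describe them.

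Scaling bears on every value given here. The EV libraries had normalization factors (trimmed mean of M values, TMM) between 0.9405 and 0.9673 and the control libraries between 1.014 and 1.071, so that EV counts were raised relative to control counts. With total library size instead, the median log2 fold change of all genes tested moved from 0.014 to -0.12, and 89 genes were higher and 962 lower. Another scaling shifts all genes alike, so that the distance of each gene from that median is fixed under TMM, total library size and DESeq2 size factors, at 0.56 for Rrbp1, 1.6 for Actn2, 0.56 for Gfm2, 0.61 for Sphk2, 0.62 for Acnat1 and 0.45 for Dbp on the log2 scale.

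**Figure D1:**
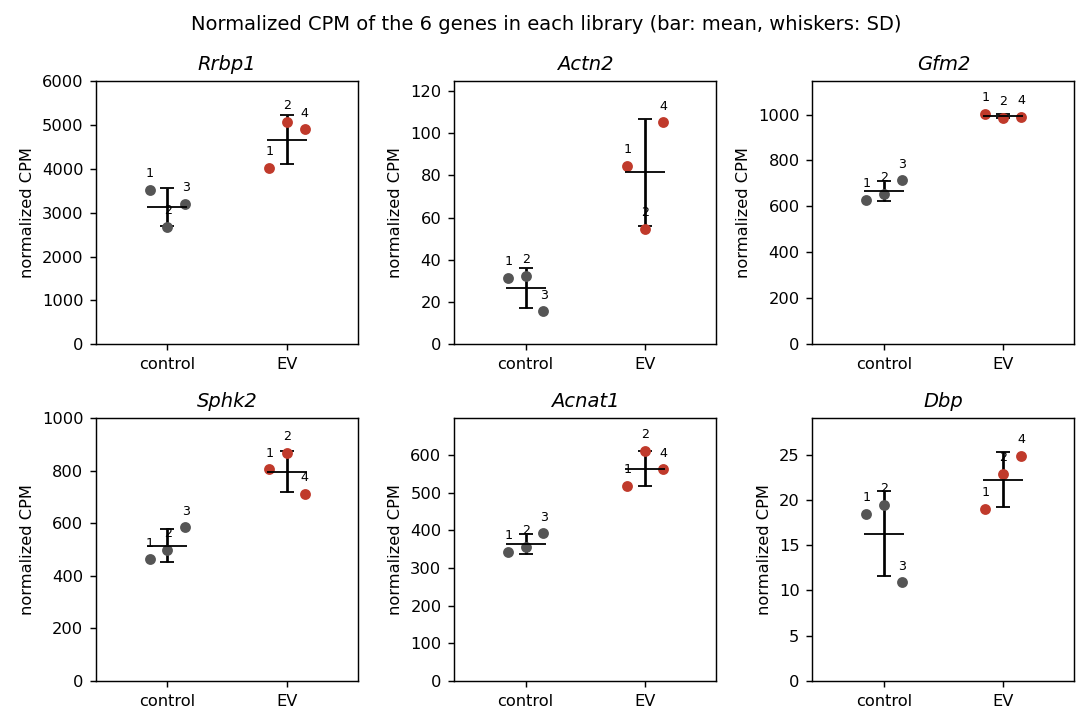
Normalized CPM (vertical axis, from 0) of the 6 genes in each control library (grey, 1, 2 and 3) and EV library (red, 1, 2 and 4), with the mean as a bar and the SD as whiskers. The EV points of Rrbp1, Actn2, Gfm2, Sphk2 and Acnat1 lie above all their control points, whereas the Dbp value of EV library 1 (19.0) lies below that of control library 2 (19.5).

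Rrbp1 had the most counts of the 6 genes, above 99.4% of the genes tested in control CPM. That is a rank of counts assigned to genes. It put Rrbp1 above Actb, Gapdh and Eef1a1 (mean log2 CPM 7.36, 8.2 and 9.69) and below E030024N20Rik (14.4). Whether the rank follows transcript levels was not tested. Rrbp1 had 1908, 1644 and 2055 counts in control libraries 1, 2 and 3 and 1905, 2885 and 2558 in EV libraries 1, 2 and 4. In raw counts EV library 1 lay among the controls, and EV libraries 2 and 4 lay above them. Normalized CPM were 3522, 2673 and 3210 in the controls and 4026, 5082 and 4905 with EVs, so that after scaling the groups did not overlap. The means were 3135 ± 430 and 4671 ± 566 CPM (SD, n = 3 each), a ratio of 1.49 and a log2 fold change of 0.58 (SE 0.09). Counting error of about 2.31% in control and 2.02% in EV libraries was well below the spread between plates of 13.7% and 12.1%. No annotated exon of another gene overlaps Rrbp1, and none of its 8653 exonic windows of 50 bases occurs in another annotated gene.

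The genes around Rrbp1 and its relatives had other values. Dstn, which encodes the actin-severing protein destrin, lies 4070 bases away on the opposite strand and had 18, 35 and 33 control counts and 17, 20 and 25 EV counts, a log2 fold change of -0.26 (SE 0.26) that did not pass the test (adjusted p = 0.489, edgeR's quasi-likelihood test). Banf2, the nearest gene on the other side, had no count in any library. Ktn1, which encodes the ER membrane protein kinectin, fell from 21, 34 and 18 to 3, 17 and 7 counts (log2 fold change -1.23, SE 0.35, adjusted p = 0.0101 in edgeR's quasi-likelihood test). That call was lost with DESeq2's Wald test (adjusted p = 0.0847) and without control library 2 (0.139), EV library 1 (0.0753) or EV library 4 (0.0611). Ckap4, which encodes a protein of ER sheets, had 37, 26 and 23 control counts and 15, 21 and 11 EV counts (log2 fold change -0.67, SE 0.29, adjusted p = 0.0843), and passed the threshold with total library size (0.0465), with at least 10 counts required in every library (0.0487) and without control library 3 (0.0395).

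Other rough ER genes were lower in EV libraries. Of 48 other genes of ribosome docking, translocation and ER folding in the table, 32 were tested; none rose and 10 (31.2%) fell, where 14.3% of all genes tested fell. The other 22 did not pass. All 32 log2 fold changes lay below 0, with a median of -0.63, against a median of 0.014 over all genes tested. Such falls were not particular to this list. Of other sets, 8 of 17 Z-disc and sarcomere genes and 8 of 11 fibroblast markers tested fell, the markers with a median of -1.08. In the pathway lists of Gfm2, Sphk2, Acnat1 and Dbp, at most 1 gene fell in each. Calr, which encodes the calcium-binding chaperone calreticulin, fell from 358, 482 and 404 to 150, 217 and 229 counts (log2 fold change -0.86, SE 0.11, adjusted p = 8.79e-08). Hspa5, which encodes the chaperone BiP, fell by 0.79 (SE 0.17, adjusted p = 4.93e-04), and Sec62, which encodes a subunit of the translocation machinery, by 0.91 on the log2 scale (SE 0.20, adjusted p = 6.81e-04), both in edgeR's quasi-likelihood test. The number of rough ER genes that fell was 5 with DESeq2's Wald test and 6 without control library 2 or without EV library 4.

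Actn2 had the largest fold change of the 6 genes. Counts were 17, 20 and 10 in the controls and 40, 31 and 55 in EV libraries 1, 2 and 4. The lowest EV count exceeded the highest control count before any scaling. Normalized CPM were 31.4, 32.5 and 15.6 in the controls and 84.5, 54.6 and 105 with EVs, with means of 26.5 ± 9.45 and 81.5 ± 25.6 (SD, n = 3 each). The ratio was 3.08 and the log2 fold change 1.62 (SE 0.27), the 2nd largest increase of the 5066 genes tested, after that of Tekt2 (2.07). Few counts stood behind these values, and counting alone gives an error of 25.3% in a control and 15.4% in an EV library of this size. Leaving out 1 library at a time gave log2 fold changes between 1.30 and 1.88, and the fit with the replicate number as a block gave 1.09. That fit compares only the libraries numbered 1 and 2. Control library 3 (15.6 CPM) and EV library 4 (105 CPM) share their number with no other library and add nothing to it.

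Actn2 stood apart from the other actinin genes. Actn1, the main non-muscle actinin of focal adhesions and stress fibres, fell from 47, 60 and 59 to 20, 20 and 28 counts (log2 fold change -1.08, SE 0.22, adjusted p = 2.74e-04 in edgeR's quasi-likelihood test). Actn4, the other non-muscle actinin, fell from 55, 69 and 68 to 22, 40 and 27 counts (log2 fold change -0.91, SE 0.20, adjusted p = 8.26e-04). Actn3, the actinin of fast muscle fibres, had 1 count in control library 1 and none elsewhere. Both falls stayed past the threshold under every alternative run. Actn2 contributed 14.2% (95% Wilson interval 9.04 to 21.5), 13.4% (8.86 to 19.8) and 7.30% (4.01 to 12.9) of all actinin counts in control libraries 1, 2 and 3. In EV libraries 1, 2 and 4 it contributed 48.8% (38.3 to 59.4), 34.1% (25.2 to 44.3) and 50% (40.8 to 59.2), where the intervals cover counting error only. This share does not depend on the scaling of the libraries. On the opposite strand, Capn12 overlaps exons of Actn4, and Gm47766 and Gm47767 overlap exons of Actn1. Capn12 had more counts than Actn4 (mean log2 CPM 10.5 against 6.33), and its level hardly changed (log2 fold change 0.11). How far opposite-strand reads enter the Actn1 and Actn4 counts, and thus this share, was not tested. Of 3802 exonic windows of 50 bases in Actn2, 2 occur in Actn3 and none in Actn1 or Actn4.

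**Figure D2:**
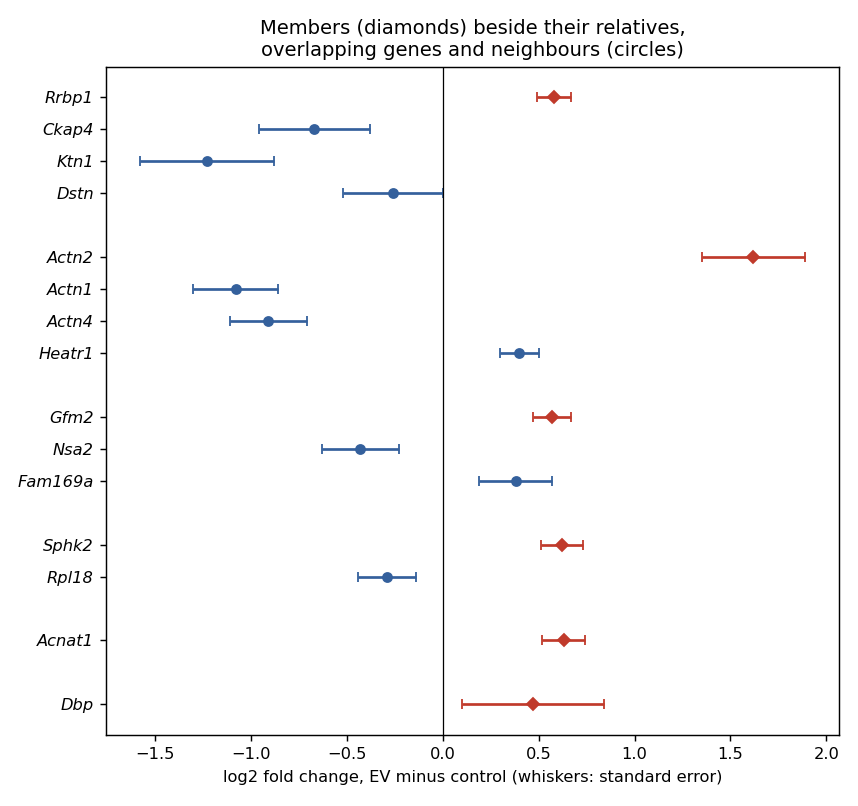
Log2 fold change (EV minus control, with SE as whiskers) of the 6 genes (red diamonds) and of their tested relatives, opposite-strand genes and neighbours (blue circles), grouped by gene, from edgeR. Actn2 at 1.62 and its relatives Actn1 at -1.08 and Actn4 at -0.91 lie on opposite sides of 0, and Rpl18, which overlaps Sphk2, lies at -0.29.

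No gene of the count table has an exon over Actn2. RefSeq places the long non-coding RNA Gm40667 over 13784 bases of its span, without a strand in the table used here, and it was not analysed. Heatr1, which encodes a ribosome biogenesis factor and lies 54266 bases away, rose from 341, 379 and 395 to 431, 480 and 369 counts (log2 fold change 0.40, SE 0.10, adjusted p = 0.00339 in edgeR's quasi-likelihood test). It is overlapped on the opposite strand by Lgals8. Mtr, on the other side, had too few counts to be tested.

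None of the other Z-disc and sarcomere genes passed the test as higher. Of 54 such genes in the table, 17 were tested; none rose and 8 (47.1%) fell, against 14.3% of all genes tested, with a median log2 fold change of -0.46, and 11 had no count in any library. Of the 17, 12 lay below 0 and 5 above it. Those above 0 included the genes of the muscle proteins nebulin, Neb, with 10, 15 and 13 control counts and 15, 18 and 22 EV counts (log2 fold change 0.73, SE 0.31, adjusted p = 0.0842 in edgeR's quasi-likelihood test), and fast troponin C, Tnnc2 (0.80, SE 0.41, adjusted p = 0.149), which did not pass. Tpm1, which encodes a tropomyosin, fell from 118, 129 and 93 to 28, 49 and 51 counts (log2 fold change -1.21, SE 0.18, adjusted p = 1.35e-06), and Acta2, which encodes smooth muscle actin, from 100, 126 and 96 to 23, 65 and 37 (log2 fold change -1.17, SE 0.19, adjusted p = 7.84e-06), in edgeR's quasi-likelihood test. Actn1 was the third of these genes by adjusted p. These 3 are used by fibroblasts as well as by muscle. Of 18 markers of muscle cells, 9 had no count in any library, among them Myod1, Myog and Ckm, and the summed level ranged from 62.5 to 74.8 CPM in controls and from 59.9 to 80.5 CPM in EV libraries. Only the titin gene Ttn was tested among them, with a log2 fold change of 0.25 (SE 0.23, adjusted p = 0.451).

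Gfm2 had the tightest values. Counts were 341, 403 and 457 in the controls and 475, 560 and 516 in EV libraries 1, 2 and 4, without overlap. Normalized CPM were 630, 655 and 714 and then 1004, 986 and 990, with means of 666 ± 43.2 and 993 ± 9.27 (SD, n = 3 each), a ratio of 1.49. The log2 fold change was 0.57 (SE 0.10). The EV libraries had a coefficient of variation of 0.933%, below the counting error of about 4.4%, though 3 libraries measure a spread only loosely. Leaving out 1 library at a time gave log2 fold changes between 0.51 and 0.62.

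Genes next to Gfm2 had other values. Nsa2, which encodes a factor of large ribosomal subunit assembly, starts on the other strand at the first base of Gfm2, with 50, 51 and 59 control counts and 28, 39 and 36 EV counts (log2 fold change -0.43, SE 0.20, adjusted p = 0.103). It passed the threshold with total library size (adjusted p = 0.0332). Fam169a, next to Nsa2, had a log2 fold change of 0.38 (SE 0.19, adjusted p = 0.143), and Enc1, downstream of Gfm2, had too few counts to be tested.

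The closest relative of Gfm2, Gfm1, the elongation factor of the mitochondrial ribosome, had between 0 and 9 counts and was not tested. Of 91 other genes of mitochondrial translation in the table, 23 were tested; 3 (13.0%) rose, where 7.58% of all genes tested rose, none fell, and 20 did not pass, with a median log2 fold change of 0.20. Mterf4, which encodes a protein of mitochondrial ribosome assembly, rose from 3375, 4545 and 4702 to 4407, 5180 and 4566 counts (log2 fold change 0.37, SE 0.08, adjusted p = 5.06e-04). Mtfmt, the formyltransferase for the initiator tRNA, rose by 0.48 (SE 0.16, adjusted p = 0.0232) and the initiation factor gene Mtif3 by 0.23 on the log2 scale (SE 0.09, adjusted p = 0.0480), in edgeR's quasi-likelihood test. The number that passed was 1 with total library size, with DESeq2's Wald test, and without control library 1 or control library 2.

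Sphk2 counts were 251, 307 and 374 in the controls and 381, 493 and 372 in EV libraries 1, 2 and 4. In raw counts EV library 4 fell just below control library 3, and the others were higher than every control. Normalized CPM were 463, 499 and 584 in controls and 805, 868 and 713 with EVs, without overlap, with means of 516 ± 62.0 and 796 ± 78.0 (SD, n = 3 each). The ratio was 1.54 and the log2 fold change 0.62 (SE 0.11). Leaving out 1 library at a time gave values between 0.53 and 0.74.

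Sphk2 is overlapped at both ends by genes of the other strand. In the GENCODE models Rpl18, which encodes a protein of the large ribosomal subunit, shares 373 exonic bases with the start of Sphk2 (9.0% of the exonic bases of Sphk2). Dbp shares 539 bases with the end of Sphk2 (13.0%). The Rpl18 start used for the promoter window above lies outside Sphk2, and the 373 bases lie upstream of that start in Rpl18. Of the 4202 exonic windows of 50 bases in Sphk2, 769 (18.3%) occur as the reverse complement in Dbp or Rpl18. Rpl18 had 96, 129 and 132 control counts and 75, 93 and 86 EV counts (log2 fold change -0.29, SE 0.15, adjusted p = 0.147 in edgeR's quasi-likelihood test, and 0.0303 with total library size). Dbp had at most 13 counts in any library. Sphk2 had more counts than both overlapping genes in every library. The strand setting of the counting is not given, so these counts do not show from which strand the reads came, and this was not tested.

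**Figure D3:**
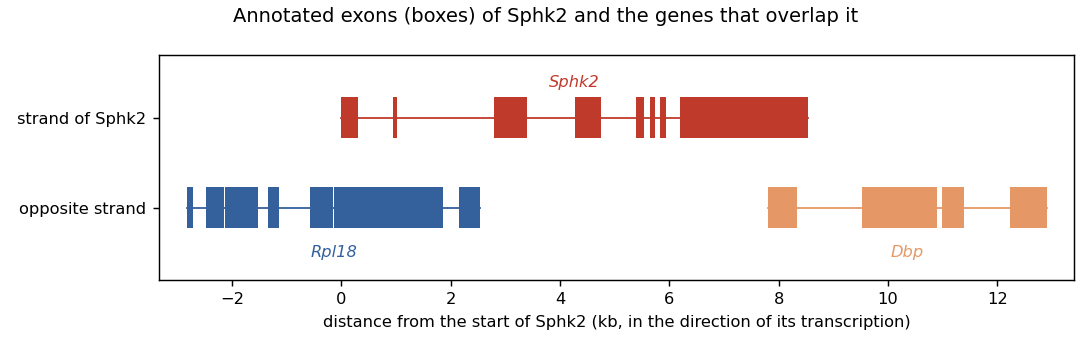
Annotated exons (boxes) and introns (lines) of Sphk2, and of Rpl18 and Dbp on the opposite strand, against distance in kilobases from the start of Sphk2. Sphk2 lies opposite Rpl18 at its start (373 shared exonic bases) and opposite Dbp at its end (539 bases).

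Few other sphingolipid genes passed the test. The other sphingosine kinase gene, Sphk1, had between 5 and 9 counts and was not tested. Of 56 other sphingolipid genes in the table, 22 were tested; 2 (9.09%) rose and 1 (4.55%) fell, where 7.58% and 14.3% of all genes tested did, and the median log2 fold change was 0.10. Ormdl2, which encodes an inhibitor of serine palmitoyltransferase, rose from 393, 445 and 570 to 525, 567 and 528 counts (log2 fold change 0.41, SE 0.10, adjusted p = 0.00184). Degs2, a dihydroceramide desaturase and hydroxylase gene, rose by 0.29 (SE 0.09, adjusted p = 0.0174), and B4galt6, which encodes a lactosylceramide synthase, fell by 0.62 on the log2 scale (SE 0.22, adjusted p = 0.0408), in edgeR's quasi-likelihood test. None of the 22 passed without control library 2, 1 passed without control library 1 or without EV library 2, and 5 passed without EV library 1.

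Acnat1 counts were 185, 219 and 251 in the controls and 245, 346 and 293 in EV libraries 1, 2 and 4. The raw count of EV library 1 lay just below that of control library 3. After scaling the groups did not overlap, with 342, 356 and 392 CPM in controls and 518, 610 and 562 CPM with EVs. The means were 363 ± 26.0 and 563 ± 45.9 CPM (SD, n = 3 each), a ratio of 1.55 and a log2 fold change of 0.63 (SE 0.11). Without 1 library at a time the log2 fold change lay between 0.57 and 0.73.

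Acnat1 was counted where its relatives were not. Acnat2, its near copy on the same strand, and Baat both had 0 counts in every library, which allows up to 3 counts in each. Of the 2174 exonic windows of 50 bases in Acnat1, 522 (24.01%) also occur in Acnat2, and how reads that match both were counted is not given in the sources used here, so the division between them is uncertain. RefSeq also places over the Acnat1 span the long non-coding RNA Gm33009 (6403 bases), the pseudogene Rbpj-ps2 (553 bases) and the small nuclear RNA Gm26424 (104 bases), which were not analysed. Of 54 other genes of peroxisomal acyl-CoA metabolism in the table, 10 were tested and 1 (10%) rose, where 7.58% of all genes tested rose, with a median log2 fold change of 0.13, and 12 had no count in any library. The gene that rose, Acot8, encodes a peroxisomal thioesterase and went from 27, 26 and 25 to 31, 39 and 36 counts (log2 fold change 0.64, SE 0.23, adjusted p = 0.0390 in edgeR's quasi-likelihood test). No gene of the 10 passed with total library size, DESeq2's Wald test, the replicate block, or without control library 1 or control library 2.

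Dbp was near the lower limit of what these libraries can count. It had 10, 12 and 7 counts in the controls and 9, 13 and 13 in EV libraries 1, 2 and 4. Normalized CPM were 18.5, 19.5 and 10.9 in controls and 19.0, 22.9 and 24.9 with EVs, so that the groups overlapped, and control library 3 was lowest. The means were 16.3 ± 4.68 and 22.3 ± 3.00 CPM (SD, n = 3 each), a ratio of 1.37, and the log2 fold change of 0.47 (SE 0.37) was little larger than its error. Without control library 3 the log2 fold change was 0.20. Counting error alone is 32.2% in a control and 29.3% in an EV library of this level. Of 3037 exonic windows of 50 bases in Dbp, 492 (16.2%) occur as the reverse complement in Sphk2, whose counts were between 251 and 493. Whether any Dbp count comes from Sphk2 reads was not tested.

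The clock around Dbp was thinly counted. Its relatives Tef (0 to 7 counts) and Hlf (0 to 2 counts), which bind the same sites, were not tested. Nfil3, which encodes a repressor acting at those sites, had 5, 6 and 2 counts in controls and 0, 1 and 0 in EV libraries and was not tested either. Of 34 other circadian genes in the table, 11 were tested and 1 (9.09%) rose, near the 7.58% of all genes tested that rose, with a median log2 fold change of 0.02. The gene that rose, Nr1d1, encodes the clock repressor REV-ERBα and went from 207, 277 and 336 to 267, 340 and 284 counts (log2 fold change 0.33, SE 0.11, adjusted p = 0.0279 in edgeR's quasi-likelihood test). It is overlapped on the opposite strand by Thra, and no gene of the 11 passed with total library size, with DESeq2's Wald test, or when control library 1, control library 2 or EV library 2 was left out.

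**Figure D4:**
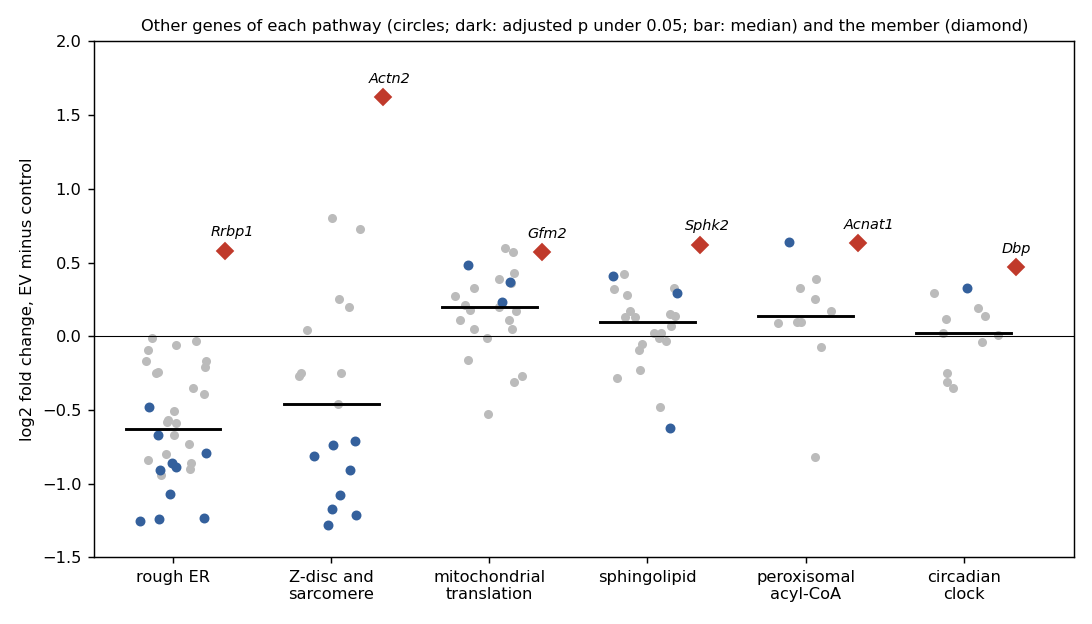
Log2 fold change (EV minus control) of the other tested genes of each pathway list (circles, dark blue where the adjusted p of edgeR's test was under 0.05; bar, median) and of the member of that pathway (red diamond). Rough ER genes have a median of -0.63 and Z-disc genes of -0.46, below Rrbp1 and Actn2, and with TMM scaling the medians of the other 4 lists lie between 0.02 and 0.20.

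The medians of the rough ER and Z-disc lists were below 0 under every scaling and filter run, from -0.77 to -0.50 and from -0.81 to -0.25. With TMM scaling the median of the fibroblast markers, -1.08, was lower than either. The signs of the medians of the other pathway lists were not kept. With total library size the median log2 fold change was 0.07 for mitochondrial translation, 0.0 for peroxisomal, -0.04 for sphingolipid and -0.12 for clock genes, and without a filter on low counts it was -0.27, -0.40, 0.07 and -0.16 in the same order.

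Many of the list genes that rose are overlapped on the other strand. Of the 7 list genes that rose, 6 have an exon overlapped by an exon of an opposite-strand gene, and of the 19 that fell, 8 do. Over all genes tested and matched to the annotation, 2262 of 5003 (45.2%) have such an overlap. The share was 79.4% (296 of 373) among genes higher and 27.3% (196 of 719) among genes lower in EV libraries. Among the 6 genes described here, Gfm2, Sphk2 and Dbp have one, and Rrbp1, Actn2 and Acnat1 do not. The library kit keeps strand, but the strand setting of the counting is not given in the sources used here, and the part of opposite-strand reads in these values was not tested.

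Per kilobase of exon, the order of the 6 levels was the same in both groups. Control levels were 357 ± 48.9 CPM per kilobase for Rrbp1, 171 ± 12.2 for Acnat1, 124 ± 14.9 for Sphk2, 62.3 ± 4.04 for Gfm2, 6.98 ± 2.49 for Actn2 and 5.45 ± 1.56 for Dbp (SD, n = 3). With EVs they were 532 ± 64.4, 265 ± 21.6, 191 ± 18.8, 93.0 ± 0.868, 21.5 ± 6.74 and 7.45 ± 1.0 in the same order. Actn2 and Dbp did not differ beyond their spread in the controls, and in EV libraries Actn2 was above Dbp. All other neighbours in this order lay further apart than their SDs. With the longest transcript as the length, Gfm2 (151 ± 9.78 CPM per kilobase in controls) was level with Sphk2 (145 ± 17.5), so that their order depends on the gene model.

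**Figure D5:**
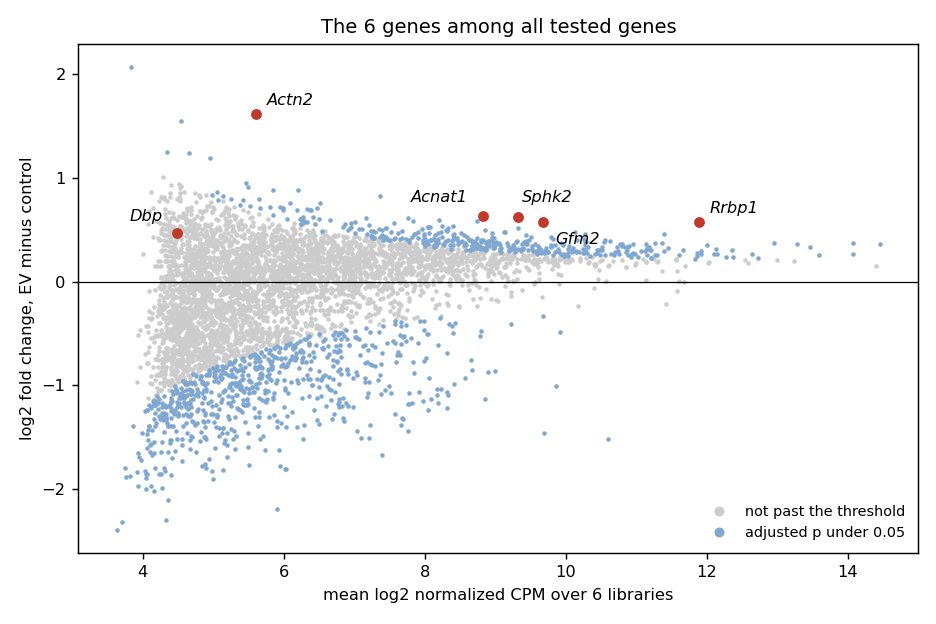
Log2 fold change (EV minus control) of all 5066 genes tested against mean log2 CPM (grey; blue where the adjusted p of edgeR's test was under 0.05), with the 6 genes in red. Actn2 lies high among thinly counted genes, Rrbp1 lies at the highly counted end, and Dbp lies at the low end near genes that were not called.

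Level went with the direction of change over all genes. Of the 721 genes with a mean log2 CPM of 8 or more, among them Rrbp1, Gfm2, Sphk2 and Acnat1, 38.7% were higher and 4.85% lower in EV libraries, with a median log2 fold change of 0.24. Of the 4345 genes below that level, among them Actn2 and Dbp, 2.42% were higher and 15.8% lower, with a median of -0.07. The log2 fold changes of these 4 highly counted genes (Rrbp1, Gfm2, Sphk2 and Acnat1), between 0.57 and 0.63, thus lay above a median that was itself above 0. The part of level in these values was not tested.

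The genes just inside and just outside the choice had similar values. Acnat1 was the last of the 5 genes chosen by adjusted p. Nt5m, which encodes a mitochondrial nucleotidase, came next, with 60, 87 and 73 control counts and 107, 121 and 110 EV counts and a log2 fold change of 0.82 (SE 0.15). Pp2d1 followed, with 178, 214 and 231 control counts and 246, 302 and 262 EV counts and a log2 fold change of 0.58 (SE 0.11). Both are overlapped on the opposite strand, Nt5m by Cops3 and Pp2d1 by Rab5a.

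The 6 genes did not all vary together within the groups. Pearson's r of the deviations of log2 CPM from the group means, over 6 libraries, was 0.75 for Gfm2 and Sphk2 and 0.69 for Sphk2 and Acnat1. It was 0.54 for Gfm2 and Acnat1 and 0.71 for Actn2 and Dbp, but -0.94 for Actn2 and Sphk2 and -0.88 for Gfm2 and Dbp. Actn2 and Acnat1 had -0.79, Sphk2 and Dbp -0.75, and Actn2 and Gfm2 -0.66. The remaining pairs lay between -0.34 and 0.41. With 3 libraries per group these r rest on few free values, and counting error was largest for Actn2 and Dbp. Over the 6 libraries without centring, the profiles most like Rrbp1 were those of Neurl2 (r = 0.997), Inpp5f (0.994) and Lctl (0.992). For Actn2 they were Cog1 (0.989), Wdr43 (0.989) and Ppp1r12b (0.982), whose own log2 fold changes were only 0.49, 0.18 and 0.19. For Gfm2 they were B3gat2 (0.996), Prg4 (0.995) and Pp2d1 (0.994), for Sphk2 Thoc6 (0.995), Scpep1os (0.993) and Armc7 (0.992), and for Acnat1 Esrra (0.994), Ino80dos (0.994) and Fdft1 (0.993). For Dbp they were Gid8 (0.995), Bckdhb (0.990) and Rev1 (0.988). The number of genes with r above 0.95 was 127 for Acnat1, 109 for Gfm2, 97 for Sphk2, 35 for Rrbp1, 16 for Actn2 and 6 for Dbp. These r describe 6 libraries that share the group difference, depth and scaling.

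Marker genes moved with the treatment as well. Of 13 fibroblast markers, 11 were tested and 8 (72.7%) fell, where 14.3% of all genes tested fell. The 8 included Col1a1, Fn1 and Vim. The median log2 fold change was -1.08, against 0.014 over all genes tested, and Lum and Fap had no count. The summed level of the 13 markers was 2472 to 2912 CPM in controls and 1082 to 1352 CPM in EV libraries. Of 16 markers of the liver progenitor cells that gave the EVs, 11 had no count in any library, among them Alb, Afp, Hnf4a, Epcam and Krt19, and the summed level was 57.2 to 102 CPM in controls and 37.0 to 46.5 CPM in EV libraries. Spp1, the only one of them tested, fell by 1.91 on the log2 scale (SE 0.33, adjusted p = 2.29e-05 in edgeR's quasi-likelihood test). Of 8 adipocyte markers 4 had no count, the summed level was 205 to 273 CPM in controls and 167 to 190 CPM in EV libraries, and Lpl fell by 0.39 (SE 0.14, adjusted p = 0.0398). The part of these shifts in the values of the 6 genes was not tested, and in bulk RNA fewer cells of a type cannot be told apart from less RNA per cell.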

How the data were processed

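RNA-seq libraries of 3T3-L1 cells (3 control, 3 EV) were analysed, grouped by their labels. The authors checked reads with FastQC, aligned them with STAR to mm10 (GRCm38) and used Rsubread to count reads per gene, and the deposited values are raw counts without normalization; their processing notes also name DESeq2. Versions, annotation release, strand setting and multi-mapping rule are not given in the sources used here. Totals of 508599 to 665465 counts make 3 counts the floor below which no fold is given. The authors name a target number of reads far above these totals, and why so few were counted in genes was not tested. No column of another sample was present (0).

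Symbols and promoters came from RefSeq GRCm38.p6 (symbols for 99.8% of 23725 genes; all 6 members had a promoter) and exons from GENCODE vM21 (98.7% matched). Fits used edgeR 4.0.16 in R 4.3.3 (filterByExpr, with a cutoff of 16.9 CPM that 3 libraries must reach; TMM; estimateDisp; glmQLFit; glmQLFTest) without covariates, with Benjamini-Hochberg adjustment over 5066 genes and a threshold of 0.05. Normalized CPM use TMM factors, and SE is the size of the log2 fold change over the root of its F statistic. Actn2 and Dbp reached the cutoff in 2 of 3 control and 3 of 3 EV libraries. The scripts were tested on simulated data.

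The members and the gene lists were chosen with earlier results of these data known. Named genes are the members, genes that overlap or neighbour them, their paralogs, up to 3 genes with the lowest adjusted p per pathway list and direction, the 3 most alike genes per member by Pearson's r of log2 CPM with a prior count of 2, the 2 genes ranked just after the choice, and cell type markers. A gene that met this rule is not reported here. Tekt2, Neb and Tnnc2 were named after their values were seen. Alternatives were DESeq2 1.42.0 (size factors; Wald test), total library size, no filter, at least 10 counts in every library, the replicate number as a block, and leaving out each library. No replicate was merged, since the chi-square of every pair within a group was above its degrees of freedom (ratios of 1.15 to 1.76).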

Additional observations from a re-analysis of the deposited data

How the results depend on the processing

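The log2 fold changes of the 6 genes stayed above 0 under each alternative run, from 0.44 to 0.71 for Rrbp1, 1.09 to 1.88 for Actn2, 0.44 to 0.66 for Gfm2, 0.49 to 0.80 for Sphk2, 0.50 to 0.73 for Acnat1 and 0.15 to 0.60 for Dbp, which had no value where at least 10 counts were required in every library. The cause of the changes below was not tested. Against 384 higher genes there were 89 with total library size, 220 with DESeq2's Wald test, 142 with at least 10 counts in every library, and 65 to 420 leaving out 1 library, lowest without control library 2 (127 without control library 1). Against 723 lower genes there were 292 with the Wald test, 473 with at least 10 counts, and 390 to 795 leaving out 1 library, lowest without control library 2. Of the list counts, the Wald test gave 5 rough ER, 5 Z-disc, 1 mitochondrial, 0 peroxisomal and 0 clock genes; total library size and the 10-count filter each gave 1 mitochondrial, 0 peroxisomal and 0 clock genes; and no filter gave 2 peroxisomal genes. Leaving out 1 library gave 6 to 13 rough ER, 6 to 8 Z-disc, 1 to 4 mitochondrial, 0 to 5 sphingolipid, 0 to 1 peroxisomal and 0 to 1 clock genes.

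Control and EV libraries share the numbers 1 and 2 only. Libraries with the same number deviated together only weakly (r of 0.07 and 0.06 over genes), and other pairs had r from -0.1 to 0.06. So few pairs cannot tell whether the number pairs the libraries, and the main fit treats them as unpaired. With the replicate block, 414 genes were higher and 701 lower, Actn2 moved to 1.09 and Dbp to 0.15, and 0 peroxisomal genes passed. Low counts limit Dbp and Actn2 most, and of the relatives, Sphk1, Gfm1, Tef, Hlf and Nfil3 could not be tested.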
